A study of Mus musculus with 6 samples.

Results

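The glycolytic isoforms and hypoxia-inducible genes described here are 35 genes listed by symbol: glucose and lactate transporters, the enzymes of glycolysis with their isoforms, the enzymes that decide the fate of pyruvate, and genes of the oxygen-sensing pathway and its targets. Of these, 31 of the 22180 genes on the array had a probe set naming them alone. Gpi1, Aldoa, Eno1 and Ankrd37 had none in the annotation used and were not analysed here. The brightest such probe set stood for each gene.

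Studied were 3 mammary tumors (numbers 23, 24 and 25), labelled Trp53/Brca1-null, from Trp53L/L;Brca1L/L females that had received the Ad-K8-Cre adenovirus in the mammary ducts several months earlier. They were compared with wild-type luminal epithelial cells of 3 Rosa26-Stop-YFP females (mice 1, 2 and 4), which had received the same virus and were sorted for the yellow fluorescent reporter after 10 to 14 days. Ad-K8-Cre carries Cre recombinase behind the promoter of keratin 8, a luminal keratin. Sorting is described for wild-type cells only, so tumor tissue with all its cell types was compared with a sorted population, and in such bulk RNA fewer cells of a type and less RNA per cell cannot be told apart. The labels do not say whether the tumors came from separate animals or give ages, so the p-values may in part measure technical spread.

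Glycolysis turns glucose into pyruvate in the cytosol, and many of its steps can be run by several isoforms whose mix differs between tissues: Pfkm, Pgam2 and Eno3 are the muscle forms of phosphofructokinase, phosphoglycerate mutase and enolase. When oxygen is short, the prolyl hydroxylases of the EGLN family no longer mark the alpha subunits of hypoxia-inducible factor (HIF) for destruction, and HIF then raises transcription of glucose transporters, glycolytic enzymes, Egln1 and Egln3 themselves and factors such as Vegfa. Many tumors, and proliferating cells in general, run glycolysis at a high rate even where oxygen is present.

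Against wild-type luminal cells the tumors had more mRNA of 4 members. These were Pfkp, the platelet-type phosphofructokinase (2.30 log2 units higher), the oxygen sensor Egln1 (2.24), the widely expressed phosphoglycerate mutase Pgam1 (1.62) and Gapdh (1.08), which oxidises glyceraldehyde-3-phosphate. No member fell. The remaining 27 did not pass the test, limma with Benjamini-Hochberg adjustment over 22180 genes and a threshold of 0.05; at an unadjusted p under 0.05, 16 members were higher in tumors and 0 lower, where 2971 of all genes were higher and 2879 lower. Over all genes 2.52% rose and 1.39% fell in this test, and over the 7726 genes with a mean of at least 5, 4.72% rose and 2.42% fell. Among members with such a mean, 4 of 19 rose, and 11 were higher at an unadjusted p under 0.05, against 1918 of the 7726. The median difference was 0.84 over the 31 members, -0.12 over all genes and 0.32 over the genes with a mean of at least 5. Differences are tumor minus wild type on the log2 scale of the deposited values, with limma's moderated standard error (SE).

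The calls depended on single arrays. Of the members, 0 passed without wild-type replicate 1 (15 higher at an unadjusted p under 0.05), without wild-type replicate 4 (14), without tumor 23 (13) or without tumor 25 (14), and Pfkp alone passed without wild-type replicate 2. Calls over all genes were few in these sets too: 62, 30, 75 and 258 of 22180 genes rose in the sets with 0 members, in the order given, and 86 in the set with Pfkp. The differences themselves stayed within 2.08 to 2.58 for Pfkp, 1.89 to 2.5 for Egln1, 1.34 to 1.85 for Pgam1 and 0.91 to 1.20 for Gapdh over all 6 sets. Without tumor 24, 11 members passed, all higher: Pfkl, Pfkp, Tpi1, Gapdh, Pgk1, Pgam1, Eno3, Pkm, Slc16a1, Bnip3 and Egln1. In that comparison 4.08% of all genes rose.

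**Figure D1:**
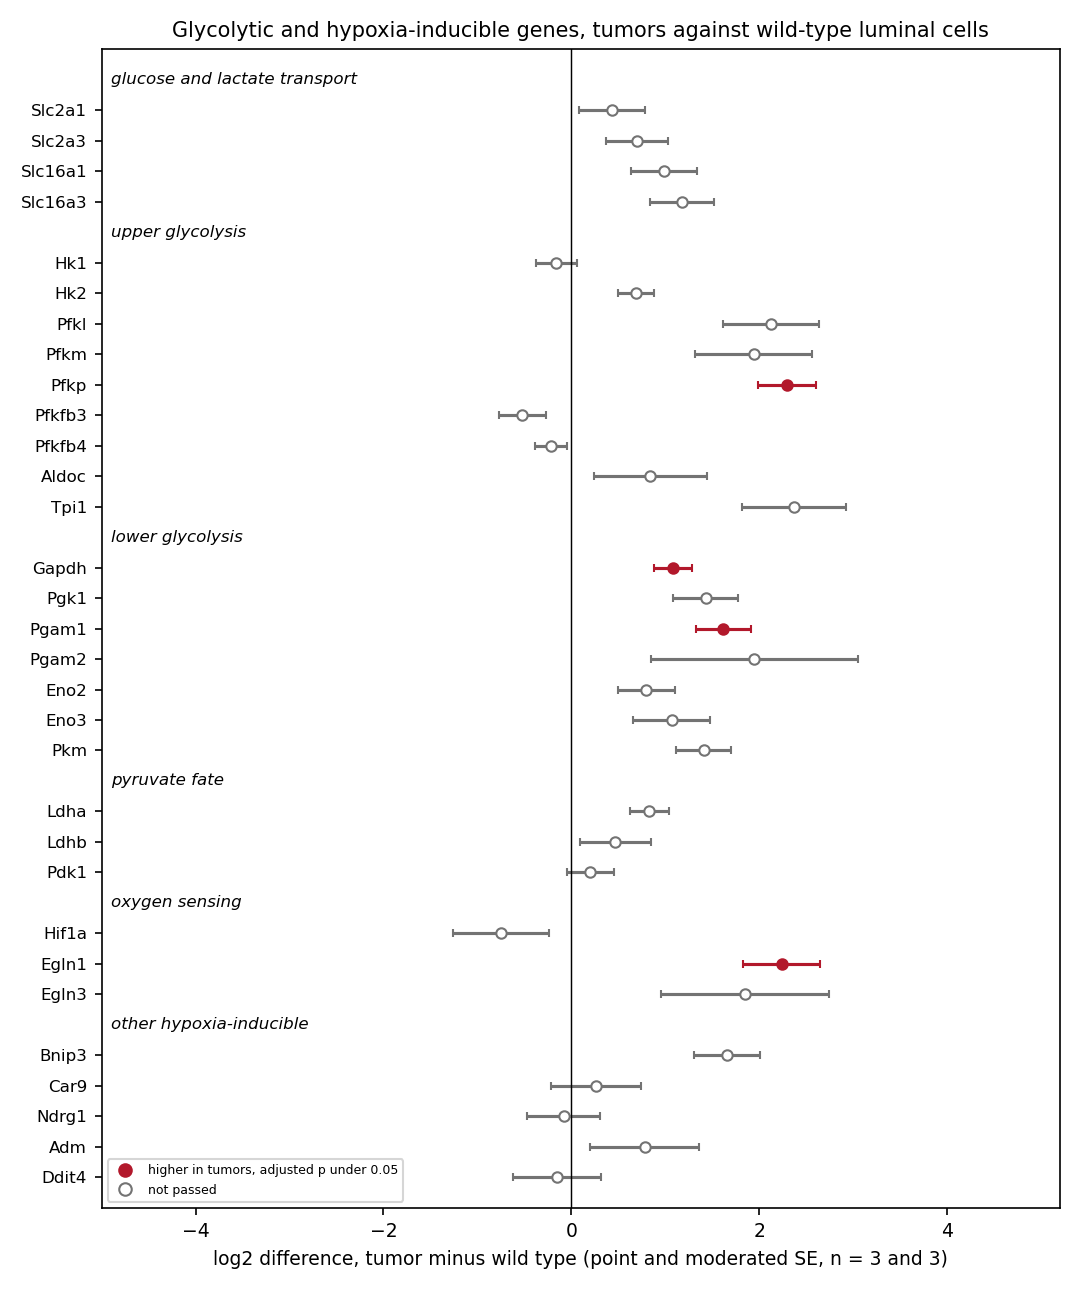
Difference between the tumors and the wild-type cells for each of the 31 measured members, grouped by role; points are log2 differences, bars the moderated SE (n = 3 and 3), and filled red points passed the test. Pfkp, Gapdh, Pgam1 and Egln1 passed, and 25 of the 31 points lie to the right of 0. Differences were above 0 for 9247 of all 22180 genes and for 5033 of the 7726 with a mean of at least 5.

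Markers of the labelled cells and of other cell types were read on the same arrays. The luminal keratin Krt8 measured 7.76 to 9.41 in tumors and 10.31 to 11.12 in wild-type cells. The mean of 8 fibroblast markers was 6.19, 6.73 and 5.26 in tumors 23, 24 and 25, while wild-type cells had 5.22 to 5.55; of these markers 1 rose and 0 fell. The brightest fibroblast markers differed in direction: Dcn measured 7.11 to 9.16 in tumors and 10.10 to 11.11 in the sorted wild-type cells, and Col1a1 7.22, 8.74 and 4.98 in the tumors against 4.86 to 6.42. For 15 skeletal muscle markers the mean on the tumor arrays was 8.34 (tumor 23), 3.57 (tumor 24) and 5.56 (tumor 25), while wild-type cells had 3.52 to 3.67. In tumor 24, 10 of these 15 lay under the background mark (below), as did 9 or 10 on each wild-type array, and 0 did in tumors 23 and 25. Acta1, the skeletal muscle actin, measured 11.07, 5.69 and 8.61 in the tumors, against wild-type values of 4.77 to 5.32. It was thus above them in tumor 24 as well. Tnnc2, the other of the 2 brightest, measured 9.93, 5.18 and 6.73, against 5.23 to 5.46, so tumor 24 lay below every wild-type array. The mean of 10 macrophage markers was 6.31 to 7.0 in tumors and 4.24 to 4.92 in wild-type cells. Of these 10 markers 6 rose and 0 fell, where 2.52% of all genes rose. The 2 brightest of these markers were not alike. Cd14 overlapped between groups: the wild-type arrays had 8.50, 9.42 and 7.58, and tumors 23, 24 and 25 had 8.53, 6.52 and 8.33. Its value in tumor 24 was thus under every wild-type array. Cd68 did not overlap, with tumor values of 8.28, 8.26 and 7.85 and a wild-type maximum of 6.75. For 6 proliferation genes the mean was 6.64, 5.93 and 7.52 in tumors 23, 24 and 25 and 3.98 to 5.26 in wild-type cells. Of these genes 2 rose and 0 fell. For 6 adipocyte markers the mean was 3.51 to 3.80 in tumors and 4.06 to 4.68 in wild-type cells, and 0 rose and 0 fell. On each array 3 to 5 of these lay under the background mark. Fabp4, the brightest, measured 8.22, 7.08 and 6.30 in tumors 23, 24 and 25, against 8.61 to 10.84, and Plin4 overlapped between groups. The part of macrophages, of fat cells and of proliferation in the results was not tested. Olfactory receptor genes, 1105 of them, served as a gauge of background, a choice made after the data were seen; their 95th percentile on an array, the background mark, lay at 3.24 to 3.45 for tumors and 3.70 to 3.86 for wild-type cells.

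ACGTG, a form of the core of the hypoxia response element to which HIF binds, was the only form searched for. The 250 bases upstream of the annotated starts of Egln1 and Pgam1 are shown because both genes rose and both windows hold it (capitals). They are RefSeq sequences of GRCm38.p6, chr8:124949255-124949504 on the minus strand for Egln1 and chr19:41911621-41911870 on the plus strand for Pgam1, given 5′ to 3′ on the gene's strand.
Egln1: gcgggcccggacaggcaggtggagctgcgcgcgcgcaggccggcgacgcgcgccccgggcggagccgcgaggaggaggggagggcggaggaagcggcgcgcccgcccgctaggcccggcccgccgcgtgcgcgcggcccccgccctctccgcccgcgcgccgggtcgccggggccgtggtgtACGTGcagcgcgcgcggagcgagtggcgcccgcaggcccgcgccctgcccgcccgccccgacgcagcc
Pgam1: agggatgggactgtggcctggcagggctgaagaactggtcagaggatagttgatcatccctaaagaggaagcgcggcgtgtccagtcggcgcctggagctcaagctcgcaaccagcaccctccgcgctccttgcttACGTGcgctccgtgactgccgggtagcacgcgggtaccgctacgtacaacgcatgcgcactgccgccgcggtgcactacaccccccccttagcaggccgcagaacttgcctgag

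The motif began 68 bases before the Egln1 start and 114 bases before the Pgam1 start. Searched on both strands (ACGTG and its reverse complement CACGT, which overlap in the E-box CACGTG of other factors), it was in at least 1 upstream window of 18 of the 33 listed members with a promoter in the table. It was in 20% of 17491 protein-coding genes and 18.5% of all 27025 genes. Of the 4 members that rose, Egln1 and Pgam1 held it and Pfkp and Gapdh did not; the windows of Pfkp and Gapdh overlap the genes' own annotated spans and are not printed. Among the 25 members with a window that did not pass, 14 held it. A match describes the letters only and is not a binding site.

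Glucose enters cells through Slc2a1 (GLUT1), the widespread transporter, and Slc2a3 (GLUT3), a high-affinity one, and lactate crosses the membrane through Slc16a1 (MCT1) and Slc16a3 (MCT4), which is known for export from glycolytic cells. All 4 transporters had higher means in tumors and none passed. Tumor means were higher for 9247 of all 22180 genes and for 5033 of the 7726 with a mean of at least 5. Slc16a3 measured 1.18 ± 0.34 higher (SE) and Slc16a1 0.99 ± 0.35, at adjusted p of 0.1 and 0.14 in limma. Slc16a3 was above every wild-type array in all 3 tumors and Slc16a1 in tumors 23 and 25. Slc2a3 differed by 0.70 ± 0.33, with all 3 wild-type values and that of tumor 24 under the background mark. For Slc2a1 the brightest probe set differed by 0.43 ± 0.35 and its second, dimmer one by -0.59 ± 0.26, so its direction rests on the choice of probe set.

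Among the 9 enzymes of upper glycolysis, Pfkp rose. It catalyses, as Pfkl and Pfkm do, the committed step that phosphorylates fructose-6-phosphate. Pfkp measured 8.96, 8.32 and 8.69 in tumors 23, 24 and 25, against 6.22, 6.94 and 5.94 in wild-type replicates 1, 2 and 4. The lowest tumor lay above the highest wild-type array. The difference was 2.30 ± 0.31 (SE), or 4.91-fold (adjusted p of 0.022 in limma), and tumor 24 alone lay 1.96 above the wild-type mean.

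Pfkl, the liver-type subunit, measured 6.45, 5.40 and 7.40 in tumors and 4.75, 3.88 and 4.24 in wild-type cells. The groups did not overlap, with an SD of 1.00 over the tumors and 0.44 over the wild-type arrays, and the difference of 2.13 ± 0.51 (SE) had an adjusted p of 0.073 in limma. Tpi1, which interconverts the triose phosphates, had the largest difference of all members, 2.37 ± 0.55. It measured 10.53, 9.39 and 11.04 in tumors and 7.56, 8.90 and 7.38 in wild-type cells, with an adjusted p of 0.068. Every tumor was above every wild-type array for Tpi1 too, tumor 24 by the least.

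The hexokinases trap glucose in the cell. Hk2, the inducible isoform, measured 0.69 ± 0.19 (SE) higher and was above all wild-type arrays in all 3 tumors, with an adjusted p of 0.096 in limma, whereas Hk1, the constitutive one, differed by -0.16 ± 0.22. Aldoc, an aldolase, differed by 0.84 ± 0.60, from -0.54 in tumor 24 to 1.73 in tumor 25 against the wild-type mean. Pfkfb3 and Pfkfb4, which make and break down fructose-2,6-bisphosphate, the activator of phosphofructokinase, were the only members for which all tumors lay below all wild-type arrays. Their differences were -0.52 ± 0.25 and -0.22 ± 0.17 (adjusted p of 0.24 and 0.41 in limma). Pfkfb4 lay near background, at 3.43 to 3.73 in tumors and 3.76 to 3.88 in wild-type cells, with 1 wild-type value under the mark. The mark itself was 3.24 to 3.45 on tumor arrays and 3.70 to 3.86 on wild-type arrays. Over all genes, the tumors lay below in 22.4%, and over those with a mean of at least 5 in 9.64%.

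In lower glycolysis all 7 measured enzymes, the muscle isoforms Pgam2 and Eno3 among them, had higher means in tumors, and 2 rose. Means were higher in tumors for 9247 of all 22180 genes and for 5033 of the 7726 with a mean of at least 5. The shares that rose were 2.52% and 4.72%. Pgam1 measured 9.53, 9.15 and 10.17 in tumors 23, 24 and 25, against 7.82, 8.19 and 7.99 in wild-type replicates 1, 2 and 4. Each tumor was above each wild-type array. The difference was 1.62 ± 0.29 (SE), or 3.07-fold (adjusted p of 0.039 in limma). Its dimmer probe set differed by 2.04 ± 0.48 and did not pass (adjusted p of 0.071 in limma over 23521 probe sets tested singly). Gapdh measured 11.14, 11.00 and 11.59 in tumors and 10.22, 10.15 and 10.12 in wild-type cells. The SD was 0.31 over the tumors and 0.05 over the wild-type arrays, and the difference was 1.08 ± 0.20 (2.12-fold, adjusted p of 0.044). For Gapdh 8 further probe sets name a pseudogene as well, so its probes may share signal with close copies. Its 2 dimmer probe sets differed by 0.95 ± 0.21 and 0.56 ± 0.54. Neither passed when tested singly (adjusted p of 0.064 and 0.51 in limma). In the dimmest, tumor 24 measured 4.64, under every wild-type array.

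Pkm (pyruvate kinase of muscle and of proliferating cells), Pgk1 (phosphoglycerate kinase) and Eno2 (the neuronal enolase) did not pass. Pkm differed by 1.41 ± 0.29 (SE), Pgk1 by 1.43 ± 0.35 and Eno2 by 0.80 ± 0.30, with adjusted p of 0.052, 0.074 and 0.16 in limma. All 3 tumors were above all wild-type arrays for each of these. Pkm measured 9.61, 9.20 and 9.77 in tumors and 7.77, 8.65 and 7.93 in wild-type cells. One probe set stands for all splice forms of Pkm, so its isoforms are not separated here.

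Taken without the muscle isoforms and the PFKFB enzymes, 11 enzymes of the glycolytic steps were measured. Of these 3 rose, where 2.52% of all genes and 4.72% of genes with a mean of at least 5 did so. For 9 the tumors lay above all wild-type arrays, against 14% and 24.5%. Their median difference was 1.41. Measured from the wild-type means, the median of these enzymes stood at 1.49 for tumor 23, 0.83 for tumor 24 and 1.66 for tumor 25. With the PFKFB enzymes kept, 13 enzymes were measured and 3 rose. The tumors lay above all wild-type arrays for 9 of the 13 and below them for 2, and the median difference was 1.08. Neither grouping was planned.

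The muscle isoforms were uneven between tumors. Pgam2 measured 7.37, 2.62 and 4.21 in tumors 23, 24 and 25, against 2.96, 2.75 and 2.63 in wild-type cells. Tumors 23 and 25 were high, and tumor 24 was under the background mark, as were all wild-type values. The difference of 1.95 ± 1.10 (SE) had an adjusted p of 0.29 in limma.

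Pfkm measured 6.39, 3.80 and 4.63 in the tumors and 3.09, 2.77 and 3.16 in wild-type cells, again all under the mark, with a difference of 1.94 ± 0.62 (adjusted p of 0.12). Eno3 measured 6.72, 5.07 and 6.12 in the tumors and 4.99, 4.76 and 4.96 in wild-type cells, a difference of 1.07 ± 0.41 (adjusted p of 0.17). For Pfkm and Eno3 tumor 24 lay above the wild-type arrays, by 0.79 and 0.17 over their mean. All 3 isoforms were highest in tumor 23 and lowest in tumor 24, the order of the mean of the 15 muscle markers.

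Of the 28 widely expressed members 7 had that order, against 18.5% of all genes and 20.4% of genes with a mean of at least 5. In 13 of the 28, tumor 25 was highest and tumor 24 lowest, against 20.6% and 28.7%. Tumor 24 was the lowest of the tumors for 23 of the 31 members, against 39% of all genes and 49.1% of genes with a mean of at least 5. In tumor 24, Pfkp, Egln1, Pgam1 and Gapdh lay 1.96, 1.72, 1.15 and 0.83 above the wild-type mean; these genes were chosen because they passed with this tumor included. In tumor 24, 16 of 31 members exceeded every wild-type array, against 26.1% of all genes and 38.9% of those with a mean of at least 5. In tumor 23 it was 23 members, against 28.8% and 47.2%, and in tumor 25 it was 24 members, against 30.8% and 51.7%. With the muscle marker mean as a covariate 0 members passed in limma (11 higher and 0 lower at an unadjusted p under 0.05, where 2147 of all genes were higher and 1704 lower), and the number of genes called over the whole array was 43, against 867 without it. The fitted differences were then 1.99 for Pfkp, 2.15 for Egln1, 1.48 for Pgam1 and 1.04 for Gapdh.

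**Figure D2:**
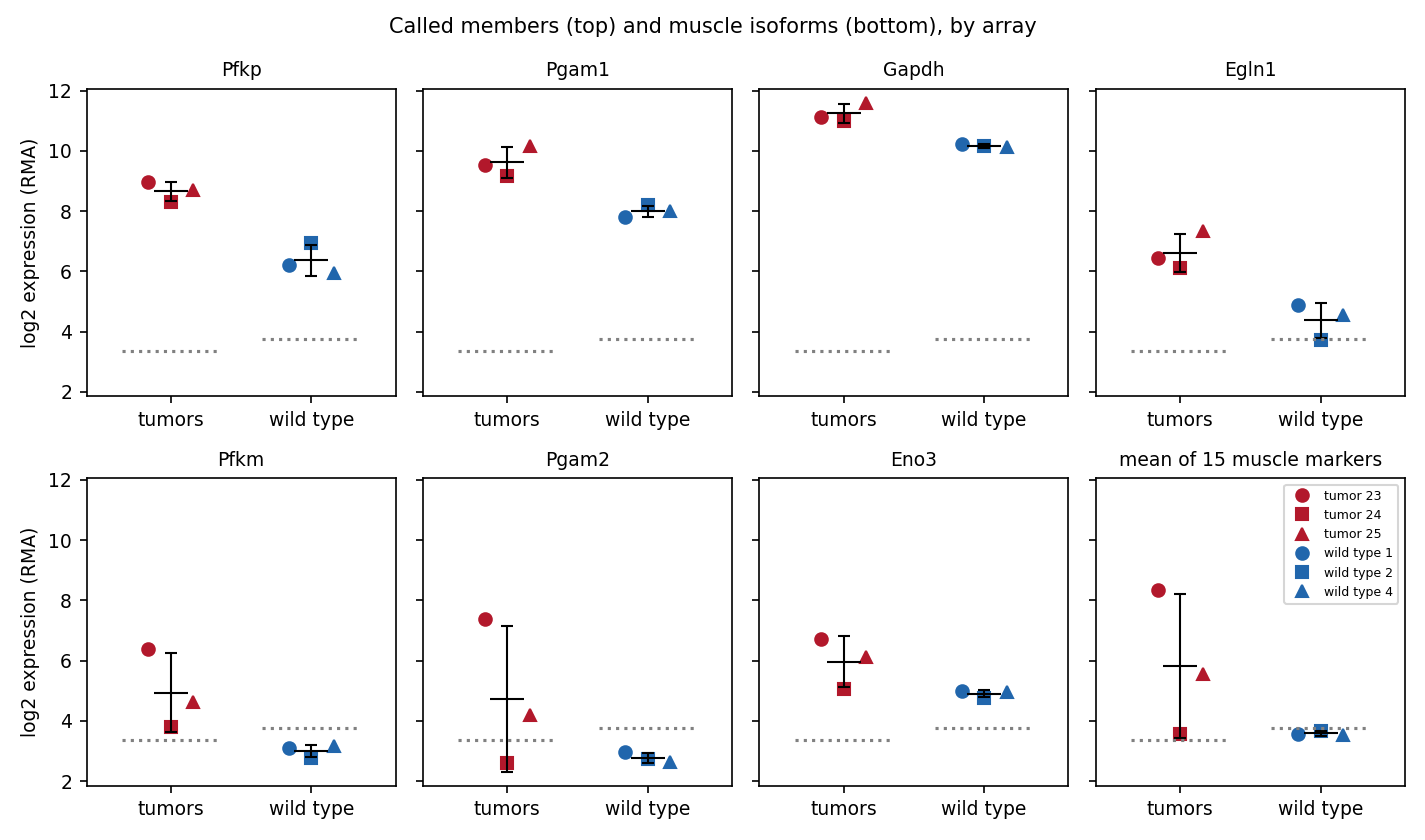
Log2 expression on each array for the 4 members that rose (top) and for the muscle isoforms with the mean of the muscle markers (bottom); bars are the mean and SD of 3 arrays, and dotted lines the mean background mark of the group. In the top row every tumor lies above every wild-type array, whereas in the bottom row tumor 23 is highest and tumor 24 is the lowest of the tumors.

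Pyruvate is reduced to lactate by lactate dehydrogenase, of which Ldha and Ldhb encode the subunits, or kept from the mitochondria by Pdk1, which inhibits pyruvate dehydrogenase. The probe set of Ldha measured 4.11, 4.02 and 4.33 in tumors and 3.56, 2.98 and 3.44 in wild-type cells. All 3 wild-type values were under the background mark, and the tumors lay 0.83 ± 0.21 (SE) higher, with an adjusted p of 0.084 in limma. Ldhb differed by 0.47 ± 0.38 and Pdk1 by 0.20 ± 0.25.

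Among the oxygen sensors, Egln1 (PHD2), the main HIF prolyl hydroxylase, rose. Its probe set measured 6.43, 6.11 and 7.33 in tumors 23, 24 and 25, against 4.87, 3.74 and 4.54 in wild-type replicates 1, 2 and 4. The groups did not overlap; wild-type replicate 2 lay under the background mark. The difference was 2.24 ± 0.41 (SE), or 4.72-fold (adjusted p of 0.042 in limma). Egln3 (PHD3) measured 8.41, 6.50 and 9.99 in tumors and 7.02, 6.87 and 5.47 in wild-type cells. Tumor 24 fell among the wild-type values, and the difference of 1.85 ± 0.89 did not pass (adjusted p of 0.23). Hif1a, the regulated alpha subunit, whose protein is controlled largely by its stability, differed by -0.75 ± 0.51 (adjusted p of 0.37), with 7.63 to 8.33 in tumors and 7.64 to 9.65 in wild-type cells.

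None of the other 5 hypoxia-inducible members passed. Bnip3, which acts in mitophagy, measured 6.22, 5.05 and 5.52 in tumors and 3.47, 4.15 and 4.20 in wild-type cells. All tumors were above all wild-type arrays, and the difference was 1.66 ± 0.35 (SE, adjusted p of 0.058 in limma). Adm, the vasodilator peptide adrenomedullin, was 1.41 and 1.38 above the wild-type mean in tumors 23 and 25 and -0.46 from it in tumor 24. Ndrg1, a stress-responsive gene, and Ddit4, an inhibitor of mTORC1, differed by -0.08 ± 0.39 and -0.15 ± 0.47.

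Car9, a carbonic anhydrase widely used as a marker of hypoxia, differed by 0.26 ± 0.48 (SE) and overlapped between groups. It lay under the background mark in 1 tumor and on 2 wild-type arrays. Its second probe set measured 5.75, 3.36 and 4.20 in tumors and 2.85, 3.19 and 2.88 in wild-type cells, a difference of 1.46 ± 0.57 (adjusted p of 0.17 in limma over 23521 probe sets tested singly).

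**Figure D3:**
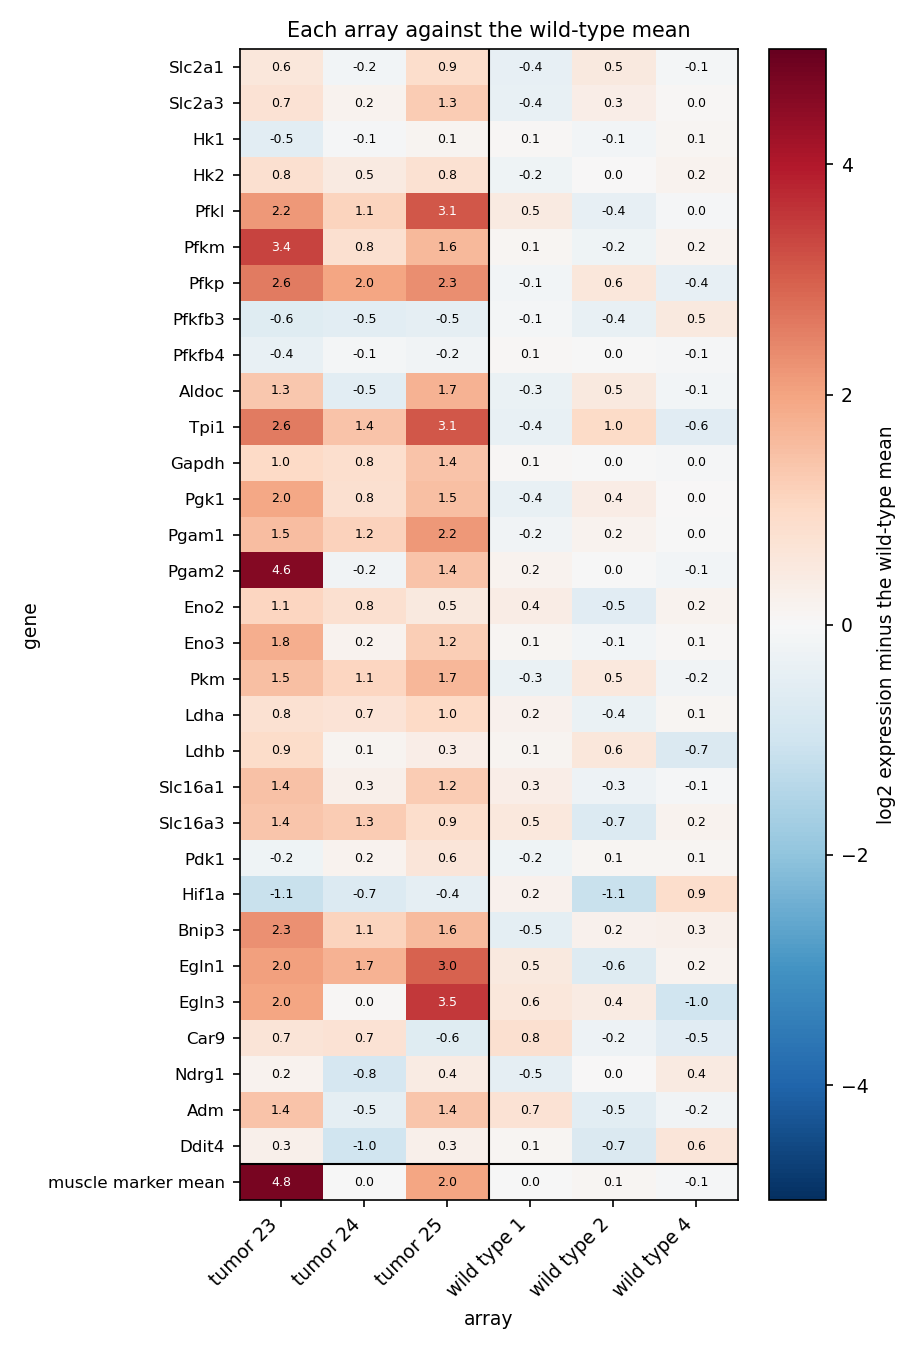
Log2 expression of each member (rows) on each array (columns) minus the wild-type mean of the gene, with the muscle marker mean in the last row; red is higher and blue lower than that mean. Tumor 24 is the lowest of the tumors for 23 of the 31 members, and Pgam2 and Pfkm stand out in tumor 23, where the muscle marker mean is also highest.

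Differences between paralogs within an array do not depend on a shift of the whole array, so 10 pairs were compared this way; the planned pairs with Aldoa and Eno1 could not be formed. With 3 arrays against 3 an exact two-sided permutation test cannot give a p under 0.1, and after adjustment over the 10 pairs no p was under 0.5. The log ratio of Hk2 to Hk1 was 0.85 higher in tumors (p of 0.1, exact permutation). Against its wild-type mean it was 1.35 higher in tumor 23, 0.53 in tumor 24 and 0.66 in tumor 25, and the wild-type arrays lay between -0.25 and 0.18. The ratio of Slc2a1 to Slc2a3 was 0.27 lower in tumors, also without overlap (exact permutation p of 0.1), with Slc2a3 near background.

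For the other 8 pairs the groups overlapped. All wild-type values of Pfkm, Pgam2 and Ldha were under the background mark, as was Pgam2 in tumor 24, so ratios with these genes there measure the distance of the partner from background. The ratio of Pfkp to Pfkl differed by 0.17 and that of Pfkp to Pfkm by 0.36. The ratio of Pgam1 to Pgam2 stood at -3.06 from its wild-type mean in tumor 23, whereas tumor 24 had 1.30 and tumor 25 had 0.75. Ldha to Ldhb differed by 0.36 and Egln3 to Egln1 by -0.39, within the spread of the arrays.

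**Figure D4:**
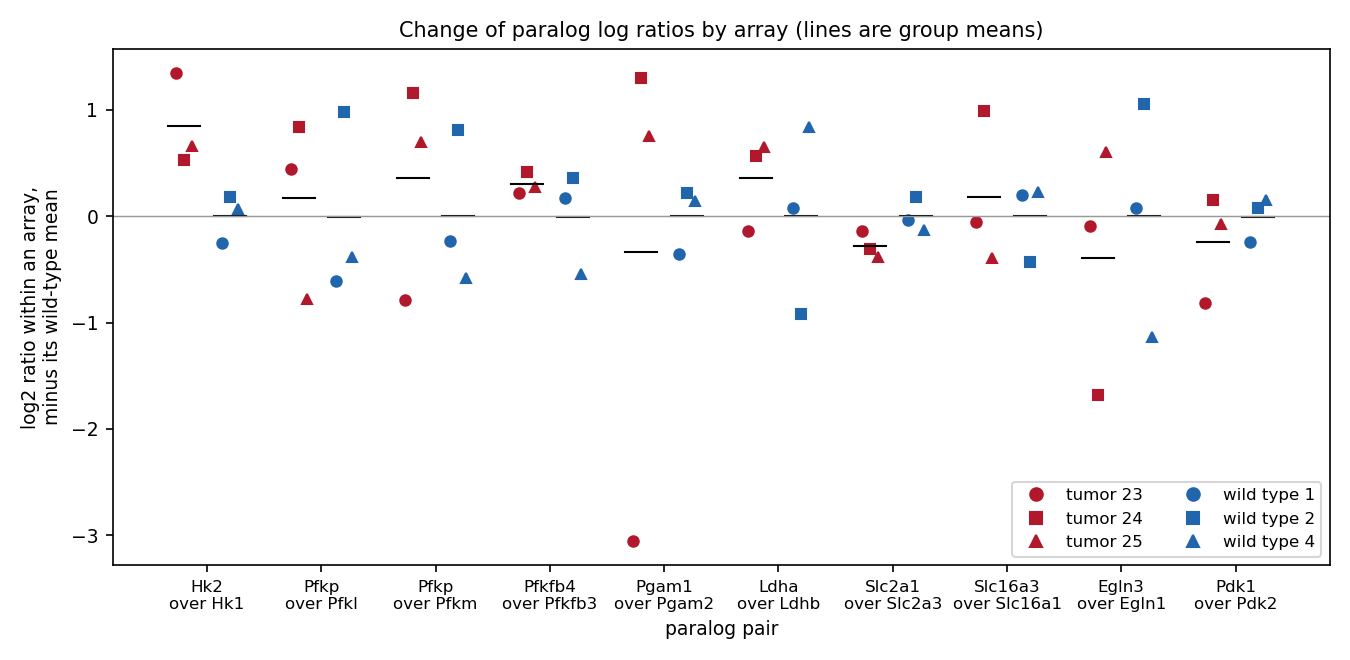
Change of the log2 ratio of each paralog pair on each array against its wild-type mean; symbols are arrays and short lines group means. The groups are apart only for Hk2 over Hk1 and Slc2a1 over Slc2a3, and tumor 23 is far below for Pgam1 over Pgam2.

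A list of 88 further genes of glycolysis, neighbouring metabolism and hypoxia was read from the same fit, of which 77 were measured: 6 rose, 4 fell and 67 did not pass, with a median difference of 0.22. Of the 38 hypoxia genes 5 rose and 2 fell. For both counts, 2.52% of all genes rose and 1.39% fell. Among genes with a mean of at least 5, 4.72% rose and 2.42% fell. Vegfa, the angiogenic factor, had a tumor mean of 9.60 ± 0.49 against a wild-type mean of 7.17 ± 0.39 (SD, n = 3 each), and the collagen prolyl hydroxylase P4ha1 a tumor mean of 6.48 ± 0.42 against 4.38 ± 0.48. Adjusted p was 0.019 and 0.028 in limma. Plod2, a collagen lysyl hydroxylase, rose by 4.24 ± 0.58 (SE), the lipoprotein receptor Vldlr by 2.64 ± 0.47 and the mitochondrial protein gene Fam162a by 1.88 ± 0.33. All 3 wild-type values of Vldlr were under the background mark.

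Other HIF-responsive genes went the opposite way. Angptl4, an inhibitor of lipoprotein lipase, measured 5.62, 5.06 and 4.50 in tumors 23, 24 and 25, against 7.77, 8.06 and 8.06 in wild-type cells, and fell by 2.91 ± 0.30 (SE, adjusted p of 0.014 in limma). The haem oxygenase Hmox1 measured 6.50, 5.95 and 5.69 in tumors and 8.31, 8.28 and 8.69 in wild-type cells, and fell by 2.38 ± 0.26 (adjusted p of 0.015). Both were below every wild-type array in each tumor, and each passed in 4 of the 6 sets that leave out 1 array, where the other 8 genes of this list that passed did so in 0 to 2. The HIF partners and regulators did not pass: Arnt differed by 1.28 ± 0.35, Epas1 (HIF-2 alpha) by 0.40 ± 0.45 and Vhl, the ligase subunit that recognises hydroxylated HIF, by 0.23 ± 0.32.

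Of the 39 other isoforms and neighbouring enzymes 1 rose and 2 fell, with a median difference of 0.04. The share that rose, 2.56%, was near the 2.52% over all genes. Pdhb, a subunit of pyruvate dehydrogenase, rose by 1.48 ± 0.28 (SE), to 8.81, 8.12 and 9.18 in tumors against 7.25, 7.17 and 7.24 in wild-type cells. Pgm2, of the phosphoglucomutase family, fell by 1.40 ± 0.20 and Pck2, the mitochondrial phosphoenolpyruvate carboxykinase, by 1.08 ± 0.19. Pgm1, of the same family, was listed but not measured. Adjusted over all genes tested, p was 0.045 for Pdhb, 0.024 for Pgm2 and 0.039 for Pck2 in limma. Tigar, a p53-induced fructose bisphosphatase, differed by 0.02 ± 0.17, with a tumor mean of 4.36 ± 0.12 and a wild-type mean of 4.34 ± 0.14 (SD, n = 3 each).

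**Figure D5:**
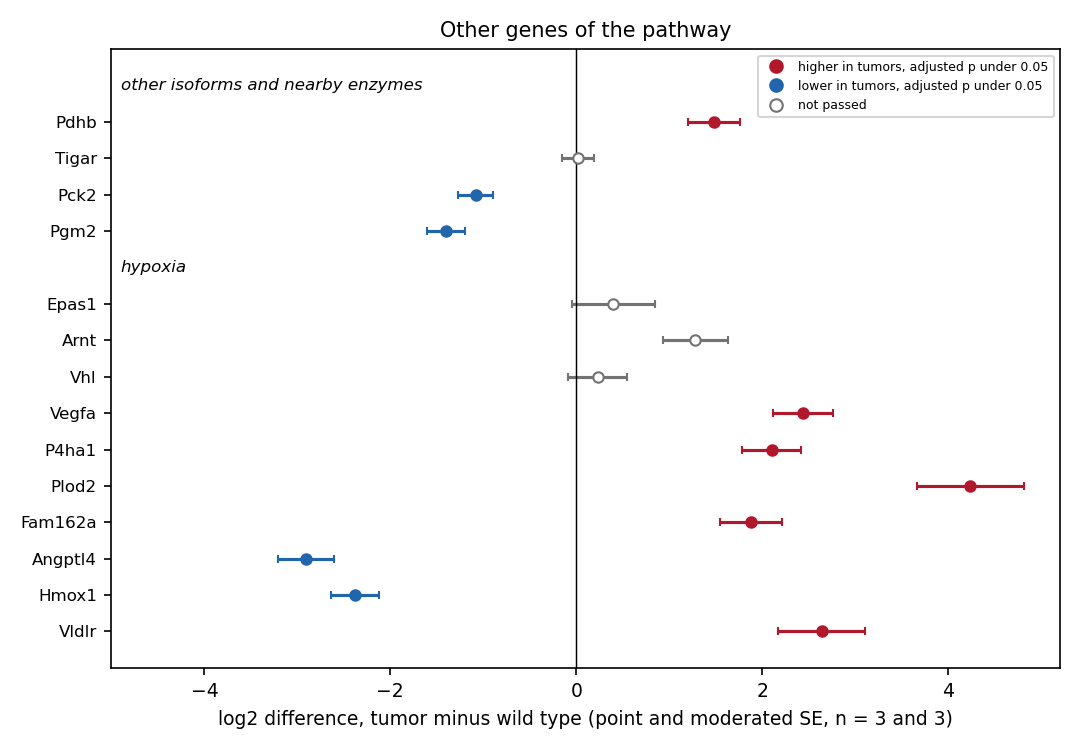
Log2 differences, tumor minus wild type, for the further genes of the pathway that passed the test (filled) and for Tigar, Epas1, Arnt and Vhl (open); bars are the moderated SE (n = 3 and 3). Plod2 lies farthest right at 4.24 and Angptl4 farthest left at -2.91.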

How the data were processed

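Per the labels, RNA was amplified and labelled for 6 arrays. The authors deposited a log2 expression value for every probe set on each; per the submitters' processing notes these come from RMA and oligo (no version given). In general, RMA pulls the arrays towards a common distribution and compresses differences near background. No scanner files were used, so no batch was tested, and array number limits precision. Of 41345 probe sets, 23521 named 1 gene in the platform annotation, 1814 several and 16010 none; 23328 were renamed by Entrez identifier through RefSeq (GRCm38.p6). The brightest probe set stood for each of 22180 genes. The groups were compared with limma 3.58.1 (R 4.3.3; lmFit, eBayes, two-sided), without covariates or a filter, and checked on simulated data with 200 changed genes. Paralog ratios were tested by exact permutation (SciPy 1.17.1). The members and lists were chosen with earlier results of these data known. Per-array values were given for members that passed, the muscle isoforms and the 6 largest differences that did not pass (Pgam2 and Pfkm among them), and other members by role; Pkm, Ldha and the second Car9 probe set were added after their values were seen. Of the further genes, those that passed and a few regulators were named. Alternatives were 3 other scalings, averaging the probe sets of a gene, a filter at a mean of 5, a trended robust prior, the muscle markers as a covariate and leaving out each array. Tumor 24 alone and probe sets tested singly were added after the data were seen. The erythroid markers had no probe set naming them alone here. Protein sequences were not used here.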

Additional observations from a re-analysis of the deposited data

How the results depend on the processing

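The number of members called was 4, and 3 to 5 under the scalings, the mean of probe sets and the trended prior. It was 7 among genes with a mean of at least 5, where fewer genes were tested, 0 to 11 when 1 array was left out, 0 with the muscle covariate, where the differences were 1.99 for Pfkp, 2.15 for Egln1, 1.48 for Pgam1 and 1.04 for Gapdh, and 0 in tumor 24 alone (7 at an unadjusted p under 0.05). Further pathway genes called numbered 10, 0 to 14 with 1 array left out, 1 with the muscle covariate and 0 for tumor 24 alone. Over all genes the count was 867, 72 to 1200 with 1 array left out, 43 with the covariate and 0 for tumor 24 alone (2216 higher and 1372 lower at an unadjusted p under 0.05). Tumor 24 alone is 1 sample, assumed to vary like the 3 wild-type arrays, and since no gene passed there, its counts of 0 say nothing about the members. Fewer arrays or degrees of freedom enter these fits, and other causes were not tested. No member was called lower in any of these fits. In the fit limited to the 7726 genes with a mean of at least 5, 649 genes rose, beside 7 of the 19 members. Gapdh lost its call after repeated quantile normalization, housekeeping centring, the mean of probe sets, the filter and the trended prior, and Pgam1 after housekeeping centring, which moved the median of all genes from -0.12 to -0.52. Calls were gained by Pfkl and Tpi1 under housekeeping centring and the filter, Pkm under repeated quantile normalization, cyclic loess and the filter, Pgk1 under the filter, and Tpi1 and Bnip3 under the trended prior. The share of calls higher in tumors over all genes was 64.5%, 44.3% with quantile normalization repeated, 52.3% with cyclic loess and 35.8% with housekeeping centring; all member calls stayed higher. The member median kept its sign, at 0.27 to 1.20.

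None of the following differences passed in the main comparison, and their signs turned. Housekeeping centring gave Pdk1 -0.21, Car9 -0.15, Tigar -0.39, Epas1 -0.01 and Vhl -0.18. The muscle covariate gave Hk1 0.08, Pgam2 -0.29, Adm -0.03, Tigar -0.05, Epas1 -0.03 and Vhl -0.05. In tumor 24 alone Slc2a1 was -0.15, Aldoc -0.54, Pgam2 -0.15, Adm -0.46, Epas1 -0.35 and Vhl -0.32. The mean of probe sets gave Slc2a1 -0.08, Ndrg1 0.01 and the ratio of Pdk1 to Pdk2 0.01. Repeated quantile normalization gave Tigar -0.14, and cyclic loess -0.06. With 1 array left out, the ranges that crossed 0 were -0.02 to 0.69 for Car9, -0.51 to 0.27 for Ddit4, -0.30 to 0.03 for Hk1, -0.33 to 0.29 for Ndrg1, -0.01 to 0.39 for Pdk1 and -0.05 to 0.10 for Tigar. Among ratios they were -0.96 to 0.26 for Egln3 to Egln1, -0.10 to 0.78 for Ldha to Ldhb, -0.44 to 0.04 for Pdk1 to Pdk2, -0.17 to 0.66 for Pfkp to Pfkl, -0.04 to 0.93 for Pfkp to Pfkm, -1.15 to 1.03 for Pgam1 to Pgam2 and -0.22 to 0.47 for Slc16a3 to Slc16a1. No paired analysis was possible because the groups share no replicate numbers.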

Other observations

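Values of 6 glycogen genes, picked from the list of further genes after they were seen, are given as a description; none passed. Gys1, the glycogen synthase of most tissues, measured 7.14, 6.81 and 7.74 in tumors 23, 24 and 25, against 5.47, 3.95 and 5.79 in wild-type cells, with all tumors above all wild-type arrays (adjusted p of 0.071 in limma). Ppp1r3c, a subunit that targets a phosphatase to glycogen, measured 6.32, 4.84 and 7.16 in tumors and 4.06, 3.61 and 3.76 in wild-type cells (adjusted p of 0.075). The muscle glycogen phosphorylase Pygm measured 8.49, 3.35 and 5.09 in tumors and 3.20, 3.34 and 3.35 in wild-type cells, and was high in tumors 23 and 25, where muscle markers were also high (adjusted p of 0.25). The other phosphorylases Pygb and Pygl differed by 1.13 ± 0.37 and 0.89 ± 0.27 (SE), with no overlap between groups and adjusted p of 0.13 and 0.11. Gbe1, the glycogen branching enzyme, overlapped between groups and differed by 0.52 ± 0.26 (adjusted p of 0.25).

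Pdk4, a pyruvate dehydrogenase kinase also picked after its values were seen, lay below the wild-type arrays in each tumor. It measured 7.36, 4.80 and 4.72 in tumors 23, 24 and 25, against 7.78, 8.67 and 8.11 in wild-type cells, with an adjusted p of 0.099 in limma.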
